A study of Triticum turgidum with 12 samples.

Results

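The genotype by water stress interaction asks, transcript by transcript, whether the pale-green durum wheat mutant (M) responded to water stress differently from its wild-type (WT). It was computed on log2 intensities as the response of M (water stress minus control) minus the response of WT, so that a negative value means a lower response in M. All 12 arrays of the series entered it, 3 in each of 4 groups. Of 61290 probe sets on the array 24590 were kept, and for 39 of these (0.159%) the responses of both genotypes differed at least 2-fold with an adjusted p under 0.05 (hereafter called probe sets). The response was higher in M for 9 of them (0.0366% of those kept) and lower in M for 30 (0.122%). In 23 of the 30 the mean under stress was below the control mean in M and above it in WT, and the 30 included the transcription factors RAP2.12 and BZIP63.

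M is MD-597, a single line obtained from cv. Borgia with sodium azide and backcrossed to it, and WT is Borgia. Effects of the pale-green mutation therefore cannot be told apart from those of any other mutation the line still carries. In the stressed groups of both genotypes irrigation was cut back at Zadoks stage 45, when the flag leaf sheath swells at booting, whereas soil in the control groups was kept at its full water capacity. Each replicate is RNA pooled from flag leaves of several plants at anthesis, hybridized to 1 Affymetrix Wheat Genome Array.

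A leaf that runs short of water makes abscisic acid, closes its stomata, lowers growth and photosynthesis, and moves carbon between starch, sucrose, fructans and cell walls. A pale-green leaf holds less chlorophyll and fewer light-harvesting complexes for each unit of area, and is used in cereals to study how light capture and drought act together. A 2 by 2 design of genotype and water supply separates 3 things: what stress does in either genotype, what the genotype does in either treatment, and whether the size or sign of the stress response depends on the genotype. In whole leaves, fewer cells of a type and less RNA per cell cannot be told apart.

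The arrays and the leaf markers were read first, because the interaction is a difference of differences and takes up the spread of all 4 groups. The median SD between replicates (log2 intensity, over the kept probe sets) was 0.24 in M under stress, 0.16 in M under control, 0.20 in WT under stress and 0.15 in WT under control. M stress replicate 3 stood apart, with 238 kept probe sets at least 4-fold below the other M stress arrays and 58 above them, against 36 to 112 below and 14 to 79 above on the other arrays. The mean log2 intensity of the spiked poly-A control transcripts was 8.20, 7.89 and 8.73 in M stress replicates 1, 2 and 3, between 7.62 and 8.01 in M control, between 8.17 and 8.42 in WT stress and between 7.55 and 7.90 in WT control. Their part in the interaction was not tested. Of the green leaf markers, the probe sets of the light-harvesting protein LHB1B2 had geometric means of 335 to 17634 in M under stress, 222 to 5691 in M under control, 163 to 7766 in WT under stress and 78.9 to 6539 in WT under control, and the RUBISCO small subunit had 3233 in M under stress, 1307 in M under control, 1508 in WT under stress and 1213 in WT under control. The RUBISCO large subunit probe set was low throughout (57.3, 237, 177 and 209 in the same order of groups), with array medians between 50.5 and 66.5.

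The size of the called interactions ran from 1.00 to 4.14 log2 units in either direction, with a median of 1.41. It was above 1.5 in 17 probe sets and above 2 in 7, all 7 of them with a lower response in M. Over all kept probe sets the median interaction was 0.02 and the median standard error (SE) 0.27, and the median SE of the called ones was 0.23. The adjusted p-values of the called probe sets lay between 0.0335 and 0.0492, just under the threshold. Another 82 probe sets with at least 2-fold had adjusted p-values between 0.05 and 0.1, the nearest at 0.0509, and 29 passed on p with a smaller difference. At an unadjusted p under 0.05 and 2-fold, 671 probe sets passed (2.73%), 297 with a higher (1.21%) and 374 with a lower response in M (1.52%). Leaving out 1 array moved the number of calls. It was 148 without M stress replicate 3, 106 without WT stress replicate 2, and 25 without WT stress replicate 1. It was 0 without M stress replicate 2, M control replicate 1, M control replicate 3, WT stress replicate 3 or any 1 of the 3 WT control replicates, with smallest adjusted p-values of 0.0515 to 0.0947 in those 7 fits and 611 to 688 probe sets at an unadjusted p under 0.05 and 2-fold. In every fit that gave a value, the sign of each of the 39 interactions was that given here. They were selected as large against their SE, so an unchanged sign follows largely from the selection.

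Opposite signs of the response were the most frequent pattern among the called probe sets. In 23 the mean was lower under stress than under control in M and higher in WT, and in 5 it was higher in M and lower in WT. Together these 28 are 71.8% of the 39, against 55.9% of the 671 at an unadjusted p and 24.5% of all kept probe sets. Opposite signs give a larger difference for the same responses, so a higher share among large interactions follows in part from the selection. In the remaining 11 the signs agreed: both genotypes had lower means under stress in 6, 3 of them with the larger response in M and 3 in WT, and both had higher means in 5, 1 with the larger response in M and 4 in WT.

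**Figure D1:**
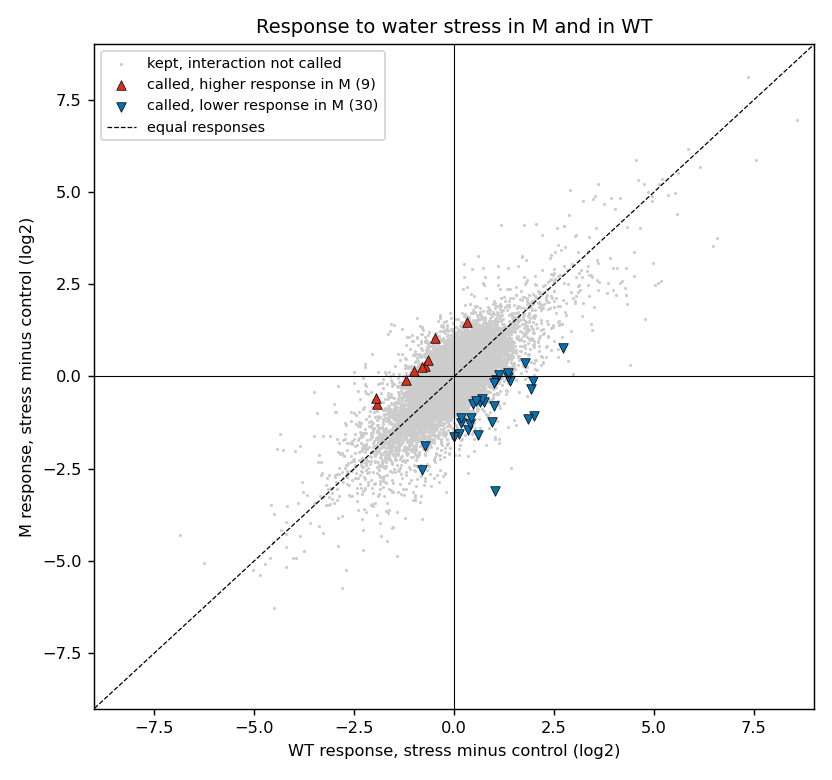
Response to water stress (log2 intensity, stress minus control, mean of 3 arrays in each group) of each kept probe set in M (vertical axis) and in WT (horizontal axis). Grey points are the probe sets whose interaction was not called, upward triangles the 9 with a higher response in M and downward triangles the 30 with a lower one; the dashed line marks equal responses. Most triangles lie in the lower right part, below 0 in M and above 0 in WT (23), or close to one of the axes, away from the long cloud of points with like responses.

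Few of the called probe sets had a response that itself passed in both genotypes. Stress called 2191 probe sets in M (8.91%) and 1787 in WT (7.27%) at the same thresholds. Of the 39, 12 were downregulated in M without a call in WT, 9 were upregulated in WT without a call in M, 4 were downregulated in WT without a call in M, and 2 were upregulated in M without a call in WT. Another 10 had a call in neither genotype, so that only the difference between 2 smaller responses passed. The last 2, Ta_28917_1_S1_at and Ta_28917_1_S1_x_at, were downregulated in M and upregulated in WT with a call in each.

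Seen from the other side, most probe sets with a call in 1 genotype had no called interaction. Of the 1077 probe sets called in M alone, 991 (92%) had the same sign in WT, and the interaction was called in 14 (1.3%) and had an unadjusted p under 0.05 with 2-fold in 236 (21.9%). Of the 673 called in WT alone, 628 (93.3%) had the same sign in M, with 13 called interactions (1.93%) and 131 at an unadjusted p (19.5%). The median size of the interaction was 0.74 log2 units in those called in M alone and 0.69 in those called in WT alone. Over all kept probe sets 75.5% had the same sign, 0.159% were called, 2.73% passed at an unadjusted p with 2-fold, and the median size was 0.23. A call in 1 genotype alone favors a larger interaction, since both use the same arrays. Of 1110 probe sets called in both genotypes in the same direction, the interaction was called in 0, and 58 (5.23%) had an unadjusted p under 0.05 with 2-fold. A response past the threshold in 1 genotype and short of it in the other was thus, in most cases, not shown to differ between them.

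The interaction can come from a genotype difference under stress, under control, or in both. Among the 39 the genotype difference was larger under stress in 28 and larger under control in 11. Over all 24590 kept probe sets these numbers were 15731 and 8859. In 33 of the 39 its sign under stress was opposite to that under control (12411 of all kept), which a large interaction favors. Between M and WT under stress, 174 probe sets were called over the whole array (0.708%), and 19 of the 39 were among them. Under control 0 were called by limma (smallest adjusted p = 0.0516), 222 had an unadjusted p under 0.05 and 2-fold (0.903%; 0.549% higher and 0.354% lower in M), and 7 of the 39 were among these. Of the 30 probe sets with a lower response in M, all M stress arrays lay below all WT stress arrays in 26 (9.33% of kept probe sets did so), and all M control arrays lay above all WT control arrays in 22 (6.88%). Of the 9 with a higher response in M, all M stress arrays lay above all WT stress arrays in 9 (9.7%), and all M control arrays lay below all WT control arrays in 4 (7.36%). The 39 were selected by the interaction on these same arrays, which favors such separation. These numbers are therefore no evidence beyond the selection.

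**Figure D2:**
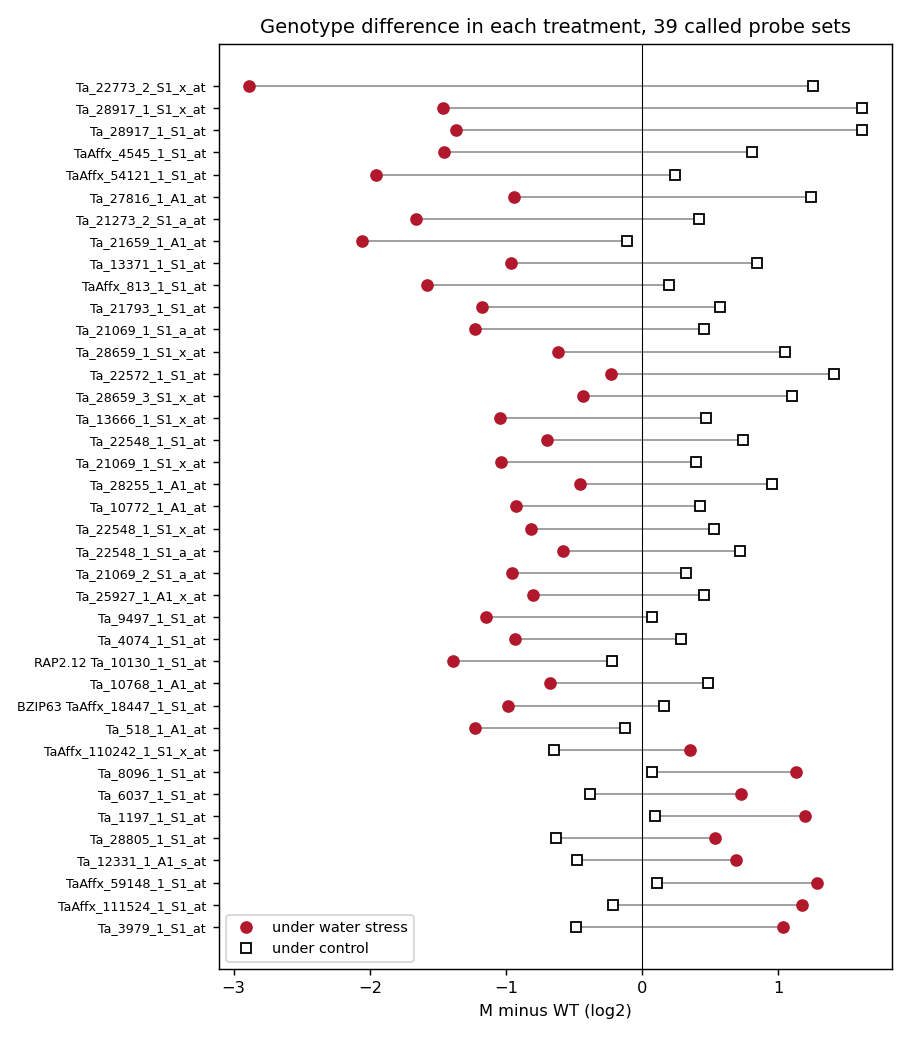
Difference between M and WT (log2 intensity, M minus WT, means of 3 arrays each) under water stress (filled circles) and under control (open squares) for the 39 called probe sets, ordered by the interaction, which is the length of each line. For 33 probe sets the circle and the square lie on opposite sides of 0, and for 28 the circle lies farther from 0 than the square.

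RAP2.12 (Ta_10130_1_S1_at) had the smallest p of the genes that the study's tables name. In Arabidopsis it is an ethylene response factor that is released when oxygen runs low and switches on fermentation genes. Its intensities were 3621, 3983 and 3266 in M under stress and 4324, 3681 and 3699 in M under control, against 9376, 8714 and 10342 in WT under stress and 4583, 4584 and 4476 in WT under control. The WT stress arrays stood above the other 9 arrays, while the M stress and M control arrays overlapped. The response was -0.11 in M (adjusted p = 0.454) and 1.06 in WT (adjusted p = 2.01e-05), and the interaction was -1.16 ± 0.14 (SE, 2.24-fold, limma adjusted p = 0.0335). Under stress M was 1.39 log2 units below WT (M minus WT = -1.39, adjusted p = 0.000117), and under control the difference was -0.23 (adjusted p = 0.912). RAP2.12 passed in 5 of the 12 fits that each left out 1 array (adjusted p 0.0114 to 0.101), which are all the fits that called anything.

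BZIP63 had lower means under stress in both genotypes, but passed as downregulated in M only. In Arabidopsis it is a basic leucine zipper factor that the energy-sensing kinase SnRK1 phosphorylates when sugar is scarce. TaAffx_18447_1_S1_at had intensities of 857, 986 and 1112 in M under stress and 3814, 3829.8 and 3187 in M under control, against 1918, 1752 and 2171 in WT under stress and 2964, 3144 and 3556 in WT under control. The M stress arrays were the lowest of the 12 and the WT stress arrays lay between them and all 6 control arrays, where M and WT overlapped. The response was -1.88 in M (adjusted p = 1.95e-06) and -0.73 in WT (adjusted p = 0.00142, under 2-fold), and the interaction was -1.15 ± 0.18 (limma adjusted p = 0.0342). It passed in 3 of 12 fits that left out 1 array, and had adjusted p = 0.0593 without M control replicate 2 and 0.0597 without WT stress replicate 1. The other BZIP63 probe sets had interactions of -1.22 (TaAffx_18447_3_S1_s_at, adjusted p = 0.116) and -1.0 (TaAffx_18447_5_S1_s_at, adjusted p = 0.0519), and each passed without WT stress replicate 2 (adjusted p = 0.0278 and 0.036), the second also without M stress replicate 3 (0.0347).

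Both belong to the study's 9 probe sets of regulators of carbon metabolism and sensing. Of these 9, 2 were called, both with a lower response in M (0.122% of all kept probe sets were), and 5 had an unadjusted p under 0.05 with 2-fold, all 5 lower in M (1.52%), with a median interaction of -1.15 against 0.02 over all kept probe sets. The study chose its lists on these same arrays, by the responses in each genotype, so that this and the other counts over its lists are not independent evidence of their direction. RAP2.7 (Ta_13336_1_S1_at), an AP2 family transcription factor, had intensities of 428, 584 and 443 in M under stress and 451, 384 and 276 in M under control, against 809, 882 and 1565 in WT under stress and 265, 299 and 315 in WT under control. The response was 0.40 in M (adjusted p = 0.245) and 1.83 in WT (adjusted p = 0.000259), and the interaction of -1.42 ± 0.35 did not pass (adjusted p = 0.116). The 2 probe sets of RAP2.8, another AP2 family factor, differed, with an interaction of -1.53 in Ta_21035_1_S1_at (adjusted p = 0.246), a dim probe set with a geometric mean of 68.2 in M under stress, and 0.00 in Ta_27316_1_S1_at (adjusted p = 0.998), where both genotypes had a response of -1.01. SAL1, a phosphatase that in Arabidopsis breaks down a drought signal, had an interaction of -0.42, and the phosphatidylinositol phosphate kinase PI3P5K had 0.49 (adjusted p = 0.58 and 0.414).

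The third called probe set with an entry in the study's tables is listed there as unknown, among those induced in M under control. Ta_22572_1_S1_at had 2284, 2537 and 2264 in M under stress and 6059.8, 7089.5 and 9344 in M under control, against 3961, 2228 and 2396 in WT under stress and 2835, 3295 and 2309.8 in WT under control. The M control arrays were the 3 highest of the 12, and the other 3 groups overlapped. The response was -1.65 in M (adjusted p = 0.000157) and -0.01 in WT (adjusted p = 0.981), with an interaction of -1.64 ± 0.30 (limma adjusted p = 0.0459). M minus WT was -0.23 under stress (adjusted p = 0.626) and 1.41 under control (adjusted p = 0.0721), neither of which passed. It passed in 2 of 12 fits that left out 1 array, those without M stress replicate 3 (adjusted p = 0.0434) and without WT stress replicate 2 (0.0282).

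**Figure D3:**
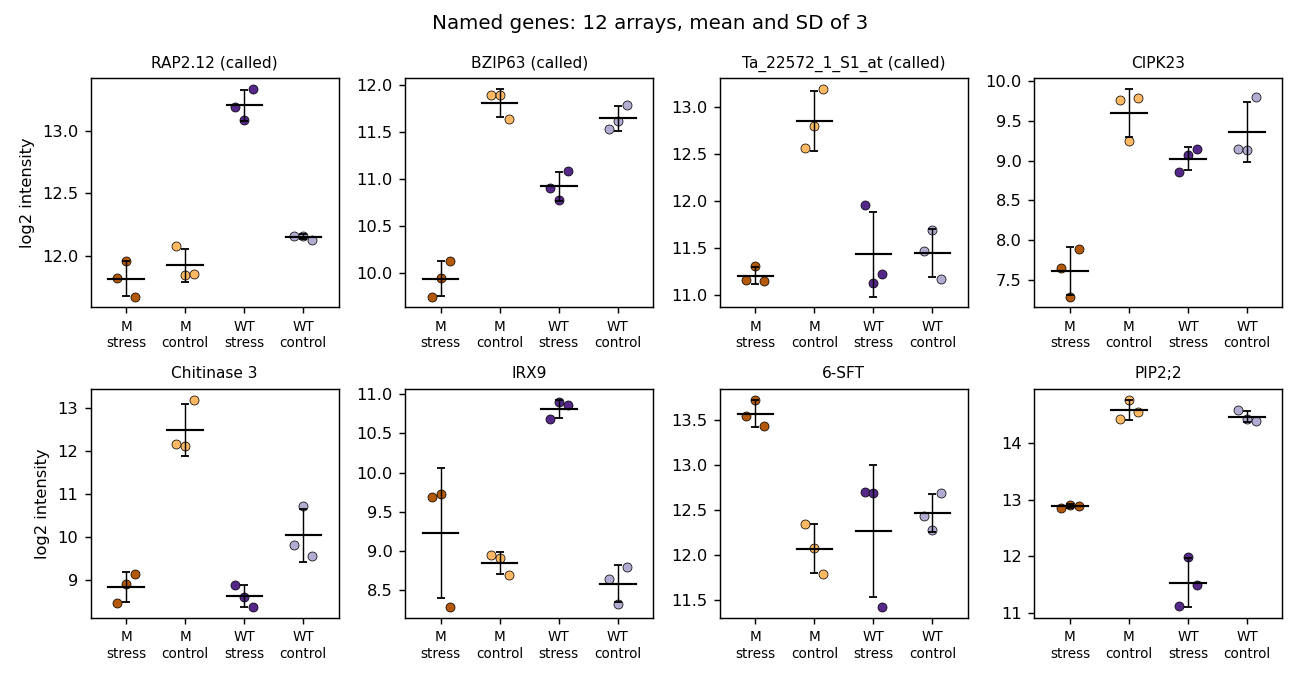
Log2 intensity on each of the 12 arrays (points) with the mean and SD of 3 (bars) for 8 named probe sets, in the order M stress, M control, WT stress, WT control, on axes that do not start at 0. RAP2.12, BZIP63 and Ta_22572_1_S1_at were called; CIPK23, Chitinase 3, IRX9, 6-SFT and PIP2;2 were not. The odd group is WT stress for RAP2.12 and IRX9, M stress for BZIP63, CIPK23 and 6-SFT, M control for Ta_22572_1_S1_at and Chitinase 3, and for PIP2;2 the WT stress arrays lie below the M stress arrays.

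The other 36 called probe sets have no name in the study's tables. On the log2 intensities as deposited, the largest interaction was that of Ta_22773_2_S1_x_at, with 14.8, 15.9 and 21.1 in M under stress and 139.6, 177 and 131 in M under control, against 133, 116 and 129.8 in WT under stress and 126, 74.2 and 25.6 in WT under control. The M stress arrays were the 3 lowest of the 12 and lay below the median of their arrays, and WT control replicate 3 was close to them. The interaction was -4.14 ± 0.71 (adjusted p = 0.038), and -2.55 (adjusted p = 0.0354) with 32 added to every intensity, which damps low values and puts it behind Ta_28917_1_S1_x_at (-2.87) and Ta_28917_1_S1_at (-2.78). Of the called probe sets, 1 had a group mean below the array median, and it is this one. It passed in 2 of the 12 fits that left out 1 array, without M stress replicate 3 (adjusted p = 0.033) or without WT stress replicate 2 (0.0386).

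Ta_28917_1_S1_at and Ta_28917_1_S1_x_at, which represent 1 transcript cluster, were the called probe sets with opposite responses that passed in both genotypes. Another kept probe set of the cluster had a smaller interaction (-1.24) and was not called. Ta_28917_1_S1_at had 252, 288 and 485 in M under stress and 525, 754 and 961 in M under control, against 566, 804 and 1331 in WT under stress and 266, 242 and 207 in WT under control. Every M stress array lay below every M control array, every WT stress array lay above every WT control array, and M stress lay below WT stress on all arrays. The response was -1.14 in M (adjusted p = 0.0179) and 1.83 in WT (adjusted p = 0.00136), and the interaction was -2.98 ± 0.45 (limma adjusted p = 0.0342), passing in 5 of 12 fits that left out 1 array. Ta_28917_1_S1_x_at, with 355, 211 and 605 in M under stress, 549.6, 740 and 1028 in M under control, 642, 966 and 1529 in WT under stress and 253, 263 and 219.5 in WT under control, had responses of -1.07 and 2.01 in M and WT and an interaction of -3.08 ± 0.52 (adjusted p = 0.038). It passed in 3 of the 12 fits, and had adjusted p = 0.0546 without M stress replicate 1 and 0.0684 without M control replicate 2. In both genotypes replicate 3 under stress was the highest of its group. For Ta_28917_1_S1_x_at, M stress replicate 3 (605) lay above M control replicate 1 (549.6), and the response in M had limma adjusted p = 0.0459.

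TaAffx_4545_1_S1_at followed the RAP2.12 pattern, with a response in WT and little in M. It had 227, 211 and 438 in M under stress and 389, 322 and 348 in M under control, against 608, 798 and 898 in WT under stress and 195, 245 and 172 in WT under control. The WT stress arrays were the 3 highest of the 12, and M stress replicate 3 alone of its group exceeded the M control arrays. The response was -0.35 in M (adjusted p = 0.338) and 1.91 in WT (adjusted p = 0.000272), with an interaction of -2.26 ± 0.37 (limma adjusted p = 0.038), which passed in 3 of 12 fits that left out 1 array and had adjusted p = 0.0518 without M stress replicate 1 and 0.0537 without M control replicate 2. Over all 30 probe sets with a lower response in M, the median response was -0.78 in M and 0.85 in WT.

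In the 9 probe sets with a higher response in M, the median response was 0.26 in M and -0.80 in WT, and the interactions ran from 1.00 to 1.52. Ta_3979_1_S1_at had the largest, with 3046, 2348 and 2158 in M under stress and 951, 1569.9 and 1217 in M under control, against 1100, 1332 and 1232 in WT under stress and 1892, 1498 and 1753 in WT under control. The M stress arrays were the 3 highest of the 12, and in WT every stress array was below every control array. It was upregulated in M (1.03, adjusted p = 0.00122), the response in WT was -0.49 (adjusted p = 0.069), and the interaction was 1.52 ± 0.25 (limma adjusted p = 0.038). It passed in 3 of 12 fits that left out 1 array, and had adjusted p = 0.0518 without M stress replicate 1 and 0.0648 without WT stress replicate 1.

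Another 3 were downregulated in WT, with responses of -0.58, -0.76 and 0.16 in M. TaAffx_111524_1_S1_at had 1349, 1140.1 and 1457 in M under stress and 1906, 2242 and 1747 in M under control, against 527, 725 and 513 in WT under stress and 2117, 2319.9 and 2379 in WT under control (interaction 1.39 ± 0.21, adjusted p = 0.0342). TaAffx_59148_1_S1_at had 841, 602 and 689 in M under stress and 1254, 1289.6 and 1049.7 in M under control, against 306, 318 and 249.6 in WT under stress and 1188, 1068 and 1073 in WT under control (1.17 ± 0.21, adjusted p = 0.0451). In both of these the WT stress arrays were the lowest 3 and the M stress arrays lay between them and all control arrays. Ta_12331_1_A1_s_at had 803, 856 and 710.4 in M under stress and 713, 761 and 648 in M under control, against 476, 473 and 518 in WT under stress and 925, 971 and 1058 in WT under control (1.17 ± 0.17, adjusted p = 0.0335), so that M stress and M control overlapped and all M control arrays lay below all WT control arrays. They passed in 4, 2 and 5 of the 12 fits that left out 1 array. For TaAffx_111524_1_S1_at the call was lost without WT stress replicate 1 (adjusted p = 0.0597), and for TaAffx_59148_1_S1_at without M stress replicate 1, M control replicate 2 or WT stress replicate 1 (adjusted p = 0.0651 to 0.0684), beside the 7 fits with no calls at all.

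**Figure D4:**
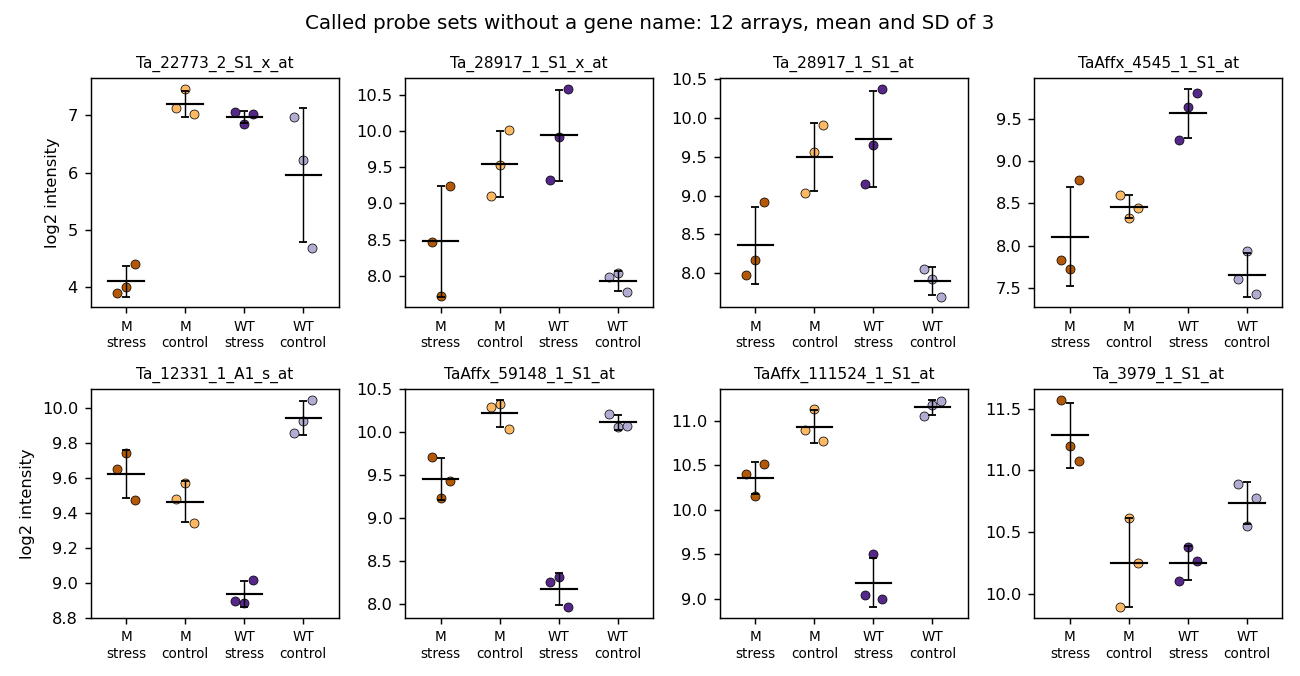
Log2 intensity on each of the 12 arrays (points) with the mean and SD of 3 (bars) for the called probe sets without a gene name that had the 4 largest interactions in each direction, in the order M stress, M control, WT stress, WT control, on axes that do not start at 0. In the upper 4 the response is lower in M and in the lower 4 it is higher in M; for both Ta_28917 probe sets the M and WT means move in opposite directions.

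Of the 39 called probe sets 1 has a gene in the platform's annotation, which covers 773 of the kept probe sets. Ta_1197_1_S1_at (LOC542862, a locus number without a name in the tables used) had 2704, 2125 and 2189 in M under stress and 2370.4, 2445 and 2684 in M under control, against 944, 1196 and 922 in WT under stress and 2233, 2168 and 2649 in WT under control. The WT stress arrays lay far below the other 9. The response was -0.10 in M (adjusted p = 0.6) and -1.21 in WT (adjusted p = 5.88e-05; interaction 1.11 ± 0.19, limma adjusted p = 0.038). It is singled out after its values were seen, as is Ta_1197_1_S1_x_at of the same cluster, which had 0.94 (adjusted p = 0.058).

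The 39 probe sets represent 33 transcript clusters by their names, 24 with a lower and 9 with a higher response in M, so that they are not 39 separate transcripts. Probe sets of 1 cluster can share sequence, and 10 of the called ones carry an ending that marks probes shared between transcripts (9 _x_at, 1 _s_at). Ta_22548 and Ta_21069 have 3 called probe sets each and Ta_28917 and Ta_28659 have 2 each. In 14 of the 33 clusters another 16 kept probe sets were not called, and 16 of these 16 had the same sign of the interaction, 10 of them with an unadjusted p under 0.05 and 2-fold. In Ta_22548, chosen after the values were seen, the 3 called probe sets had interactions of -1.44, -1.34 and -1.30 with responses of -0.70, -0.71 and -0.61 in M and 0.74, 0.64 and 0.69 in WT, all under 2-fold in either genotype.

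Of the cell wall genes in the study's list, 1 of 12 kept probe sets was upregulated in M (3.42% of all kept probe sets were) and all 12 in WT (3.07%). The study chose this list by the responses in each genotype on these same arrays. Neither this split nor the sign of the interaction is independent of that choice. The interaction was negative in 11 of the 12 (11756 of all 24590 kept probe sets), with a median of -0.79, but it was called in 0. An unadjusted p under 0.05 with 2-fold was seen in 3, all lower in M (1.52% of all kept). IRX9 (Ta_5628_1_A1_at), a glycosyltransferase of xylan synthesis in Arabidopsis, had 828, 845 and 312 in M under stress and 497, 481 and 414 in M under control, against 1641, 1903 and 1864 in WT under stress and 399, 321 and 445 in WT under control. The WT stress arrays were the 3 highest, and M stress replicate 3 lay below all M control arrays while replicates 1 and 2 lay above them. The interaction was -1.84 ± 0.42 (adjusted p = 0.0900), and without M stress replicate 3 it was -1.37 (adjusted p = 0.023). The xyloglucan xylosyltransferase XT2 had -1.21 (adjusted p = 0.138), ATCSLC12, a glucan synthase of the xyloglucan backbone, had -0.94 (0.06), and the cellulose synthase CESA1 had -0.85 and -0.53 in its probe sets (0.0617 and 0.189).

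Defense genes of the study's control list, 12 probe sets listed as induced in M and 1, an oxalate oxidase (Ta_24453_1_S1_s_at), as repressed, were mostly downregulated by stress. Of the 13, 11 were downregulated in M (5.49% of all kept probe sets were) and 8 in WT (4.19%). The interaction was negative in 11 (11756 of all 24590 kept probe sets) with a median of -1.44, and it was called in 0. At an unadjusted p under 0.05 and 2-fold there were 5, all lower in M (1.52% of all kept). The study chose these probe sets by the difference between M and WT in the control arrays, high in M for the 12 and low in M for the oxalate oxidase (interaction 1.18, adjusted p = 0.623), and those arrays also enter the interaction, so that its direction is not independent of that choice. Chitinase 3 (TaAffx_128418_43_S1_at), which cuts the chitin of fungal walls, had 350.1, 481 and 561 in M under stress and 4586, 4483 and 9469.7 in M under control, against 469.5, 386 and 329.5 in WT under stress and 899, 1699.5 and 755 in WT under control. Under stress M and WT overlapped at a low level, and under control every M array was above every WT array. The interaction was -2.25 ± 0.46 (adjusted p = 0.0617), with -2.40 (adjusted p = 0.0437) without M stress replicate 3.

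The same form was seen in other probe sets of that list. Glucan endo-1,3-beta-glucosidase GII (TaAffx_24475_1_S1_x_at), which cuts beta-glucans, had -2.17 ± 0.50 (adjusted p = 0.0944, and 0.0462 without M stress replicate 3), and its second probe set TaAffx_24475_1_S1_at had -1.48 (0.559), with -0.68 without WT control replicate 1 and -2.25 without WT control replicate 2. Interactions were -2.55 for Beta-1,3-glucanase, -1.50 for the small defense peptide Blufensin1 and -1.44 for ACT-1, which makes antifungal phenolic amides in barley (adjusted p = 0.397, 0.149 and 0.277). Beta-1,3-glucanase (Ta_28_1_S1_at) had 17.9, 121 and 175 in M under stress, and without the first of these, replicate 1, its interaction was -1.54. From other lists chosen on the control arrays, peroxidase POX10 had -1.58 and -1.07 in its probe sets (0.274 and 0.542, the second, Ta_30028_1_S1_s_at, with -0.65 without WT stress replicate 3), the WRKY45-like transcription factor (Ta_8614_2_S1_x_at) -1.36 (0.288, and -0.85 without M stress replicate 1), and Sb05g022350, of unknown function, -2.40 (0.425) at intensities of 3.19 to 14 in M under stress. Over the whole control list of induced genes, 21 of 22 kept probe sets had a negative interaction (median -1.30). Over that of repressed genes 12 of 15 had a positive one (median 0.76), among them the dehydrin-like RAB protein (Ta_2638_1_S1_at) with 1.58 (adjusted p = 0.398). Of all 24590 kept probe sets 11756 were negative and 12834 positive. The control arrays by which the study chose these lists also enter the interaction, so the direction in either list is not independent of that choice.

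CIPK23 (Ta_5041_1_S1_at), in Arabidopsis a calcium-regulated kinase of potassium and nitrate transporters, missed the threshold narrowly. Its intensities were 201, 156 and 237 in M under stress and 867, 607 and 884 in M under control, against 464, 536 and 565 in WT under stress and 564, 563 and 893 in WT under control. The M stress arrays were the 3 lowest of the 12, and WT stress replicate 3 overlapped the WT control arrays. The response was -1.99 in M (adjusted p = 6.06e-05) and -0.34 in WT (adjusted p = 0.302), and the interaction was -1.65 ± 0.31 (adjusted p = 0.0519). It passed without M stress replicate 3 (adjusted p = 0.0339) and without M control replicate 2 (0.0498). The second CIPK23 probe set (Ta_5041_2_S1_a_at) had an interaction of -0.16 (adjusted p = 0.926), with geometric means of 121 in M under stress, 226 in M under control, 118 in WT under stress and 196 in WT under control.

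Glutamate and GABA genes had negative interactions in 6 of 6 kept probe sets (11756 of all 24590 kept), with a median of -1.01. The study chose this list by the responses in each genotype on these same arrays, so its counts are not independent of that choice. Of the 6, 5 were downregulated in M (5.49% of all kept probe sets were) and 0 in WT (4.19%) by limma at the same thresholds, yet the interaction was called in 0, and 2 passed at an unadjusted p with 2-fold (2.73% of all kept probe sets did). They were GAD3 (Ta_25990_1_A1_at, -1.29, adjusted p = 0.113), a glutamate decarboxylase that makes GABA, and the glutamate dehydrogenase GDH2 (Ta_1870_1_S1_a_at, -1.12, adjusted p = 0.216). Among 20 kept probe sets of detoxification genes, 3 had a higher response in M at an unadjusted p with 2-fold (1.21% of all kept). A lower one was seen in 2 (1.52%), and the median was -0.34. The lower ones were POX10, given above, and a glutaredoxin (TaAffx_100459_1_S1_at, -2.89, adjusted p = 0.308), a small redox enzyme whose WT control arrays had 36.2, 51.6 and 4.94 and whose interaction was -1.85 without the last of these, replicate 3. The higher ones were the ascorbate peroxidases APX4 (Ta_488_2_S1_at, 1.67, adjusted p = 0.37) and TAPX of the thylakoid, with 1.01 and 1.00 in its probe sets (Ta_11386_2_S1_x_at and Ta_11386_2_S1_a_at, adjusted p = 0.251 and 0.174), the second with 1.26 (adjusted p = 0.0289) without M stress replicate 3.

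Among the named genes, water channels were the closest to a call on the positive side. PIP2;2, an aquaporin that lets water through the plasma membrane, had in TaAffx_8804_1_S1_s_at intensities of 7371, 7703 and 7559 in M under stress and 21786, 27796 and 23980 in M under control, against 2228, 4056 and 2877 in WT under stress and 24477, 21947 and 21431 in WT under control. All stress arrays lay below all control arrays, the WT stress arrays were the 3 lowest, and M and WT overlapped under control. It fell by 1.69 in M and by 2.93 in WT (adjusted p = 2.63e-05 and 6.97e-07), with an interaction of 1.24 ± 0.24 (adjusted p = 0.0519), which was 1.24 (adjusted p = 0.0461) without M stress replicate 3 and 1.46 (0.0114) without WT stress replicate 2. The second PIP2;2 probe set (TaAffx_8804_3_S1_s_at) also had 1.24 (adjusted p = 0.249), and PIP2;5 had 0.81 (0.436). All 3 were downregulated in both genotypes (5.49% of all kept probe sets were in M and 4.19% in WT), which the study's choice by these same responses favors.

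Fructan enzymes, of synthesis and of breakdown, gave 4 of the positive interactions short of a call. Sucrose:fructan 6-fructosyltransferase (6-SFT, Ta_2789_2_S1_at), which lengthens fructan chains, had 11943, 13520 and 11008 in M under stress and 5189.5, 4338 and 3550 in M under control, against 6635, 6605 and 2742 in WT under stress and 5535, 4963 and 6604 in WT under control. The M stress arrays were the 3 highest, and WT stress replicate 3 was the lowest of all 12. It was upregulated in M (1.49, adjusted p = 0.00173), the response in WT was -0.20 (0.651), and the interaction of 1.69 ± 0.39 (adjusted p = 0.0900) became 1.90 (0.048) without WT stress replicate 2 and 1.27 (0.0924) without WT stress replicate 3. Sucrose:sucrose 1-fructosyltransferase (1-SST, Ta_2788_1_A1_at), which starts the chains, had 1.30 ± 0.33 (adjusted p = 0.128, and 0.0417 without WT stress replicate 2), again with an increase in M (1.47, adjusted p = 0.000633) and 0.17 in WT (0.652).

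The fructan 6-exohydrolase probe sets, whose enzyme removes fructose from the chains, were upregulated strongly in both genotypes. Ta_9641_1_A1_a_at had 3694, 3787 and 3204 in M under stress and 247, 187 and 108 in M under control, against 3375, 3031 and 2312 in WT under stress and 365, 355 and 473 in WT under control. M and WT overlapped under stress and did not under control, where M was lower. The response was 4.38 in M and 2.86 in WT (adjusted p = 6.92e-07 and 1.13e-05), and the interaction was 1.51 ± 0.35 (adjusted p = 0.0960). Ta_30950_1_A1_x_at had 1.44 ± 0.35 (adjusted p = 0.113, and 0.0458 without M stress replicate 3). Over the 9 kept probe sets of fructan and vacuolar sucrose enzymes, 4 passed at an unadjusted p with 2-fold, all higher in M (1.21% of all kept). Of the 9, 0 were called, with a median of 0.21 and a range of -1.08 (the invertase BFRUCT3) to 1.69.

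Light-harvesting and chlorophyll synthesis genes had positive interactions in 8 of 9 kept probe sets (12834 of all 24590 kept), with a median of 0.83. Of these, 6 were upregulated in M (3.42% of all kept probe sets were) and 0 in WT (3.07%), where 1 was downregulated (4.19%). The study chose this list by the responses in each genotype on these same arrays, so its counts are not independent of that choice. The interaction was called in 0 and passed at an unadjusted p with 2-fold in 1 (2.73%). It was LHB1B2 in Ta_3249_3_A1_at, a chlorophyll-binding antenna protein of photosystem II, with 20096, 15881 and 17183 in M under stress and 4779.8, 7330.2 and 5262 in M under control, against 4585, 11612 and 8797 in WT under stress and 6455, 6753 and 6413 in WT under control. The M stress arrays were the 3 highest, while the WT stress arrays lay on both sides of the WT control arrays. The interaction was 1.38 ± 0.37 (adjusted p = 0.145, and 0.0391 without WT stress replicate 2), and the other 4 LHB1B2 probe sets had 0.95, 0.85, 0.83 and -0.46. Without WT stress replicate 1, the lowest of its group, the first 3 of these (Ta_28496_1_A1_x_at, Ta_30702_1_S1_x_at and Ta_3249_2_S1_x_at) had 0.56, 0.46 and 0.49. HEMA1, which starts chlorophyll synthesis, had 0.77 and 0.78, and the early light-induced protein ELIP1 had 0.83 and 1.2.

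Genes of chloroplast transcription and translation had positive interactions in 5 of 5 kept probe sets (12834 of all 24590 kept), with a median of 0.75. Of these, 4 were upregulated in M (3.42% of all kept probe sets were) and 0 in WT (3.07%). This list, too, was chosen by the responses in each genotype on these same arrays, so its counts are not independent of that choice. At an unadjusted p with 2-fold 1 passed (2.73%), the RNA polymerase beta' subunit-1 (1.14, adjusted p = 0.359). DXS (Ta_3366_1_S1_at), the first enzyme of the plastid isoprenoid pathway, had 1.07 (adjusted p = 0.173), and the RUBISCO large subunit (TaAffx_128414_24_A1_s_at) had -1.80 (adjusted p = 0.4) at the low intensities given above. CT-BMY, a beta-amylase that breaks down starch in the chloroplast, had 1.75 ± 0.56 in TaAffx_68872_1_S1_at (adjusted p = 0.238), where the WT stress arrays had 149.8, 41 and 44.9, and without the first of these, replicate 1, it was 2.35 (adjusted p = 0.04). Its second probe set (Ta_16135_1_A1_at) had 0.65 (adjusted p = 0.395).

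The lists given next had 0 called interactions, with medians between -0.52 and 0.05. Jasmonate synthesis and signaling (9 kept, median -0.27), ethylene synthesis and response (6 kept, -0.23), the glyoxylate cycle with malate and PEP enzymes (8 kept, -0.52) and branched-chain amino acid breakdown (6 kept, -0.48) had 0 called interactions and 0 at an unadjusted p with 2-fold. All 9 jasmonate probe sets were downregulated in both genotypes (5.49% of all kept probe sets were in M and 4.19% in WT), which the study's choice by these same responses favors. Sucrose, raffinose, trehalose and starch enzymes (18 kept) had a median of 0.05 with 1 at an unadjusted p with 2-fold (2.73% of all kept), the CT-BMY probe set above. Of all 205 kept probe sets with a name in the study's tables, 3 were called (0.159% of all kept probe sets were), and the median was -0.31. At an unadjusted p with 2-fold 39 passed (19%, against 2.73% of all kept probe sets), 14 higher (1.21% of all kept) and 25 lower in M (1.52%). In the 99 that the study lists as genotype dependent, 2 were called and 22.2% passed at an unadjusted p with 2-fold, against 0 and 11.3% in the 71 listed for both genotypes. The study made both lists by the responses in each genotype on these same arrays, so that a difference between them was built in. Actin, which the study used as its reference in RT-PCR, had an interaction of 0.17 ± 0.14 (adjusted p = 0.708).

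**Figure D5:**
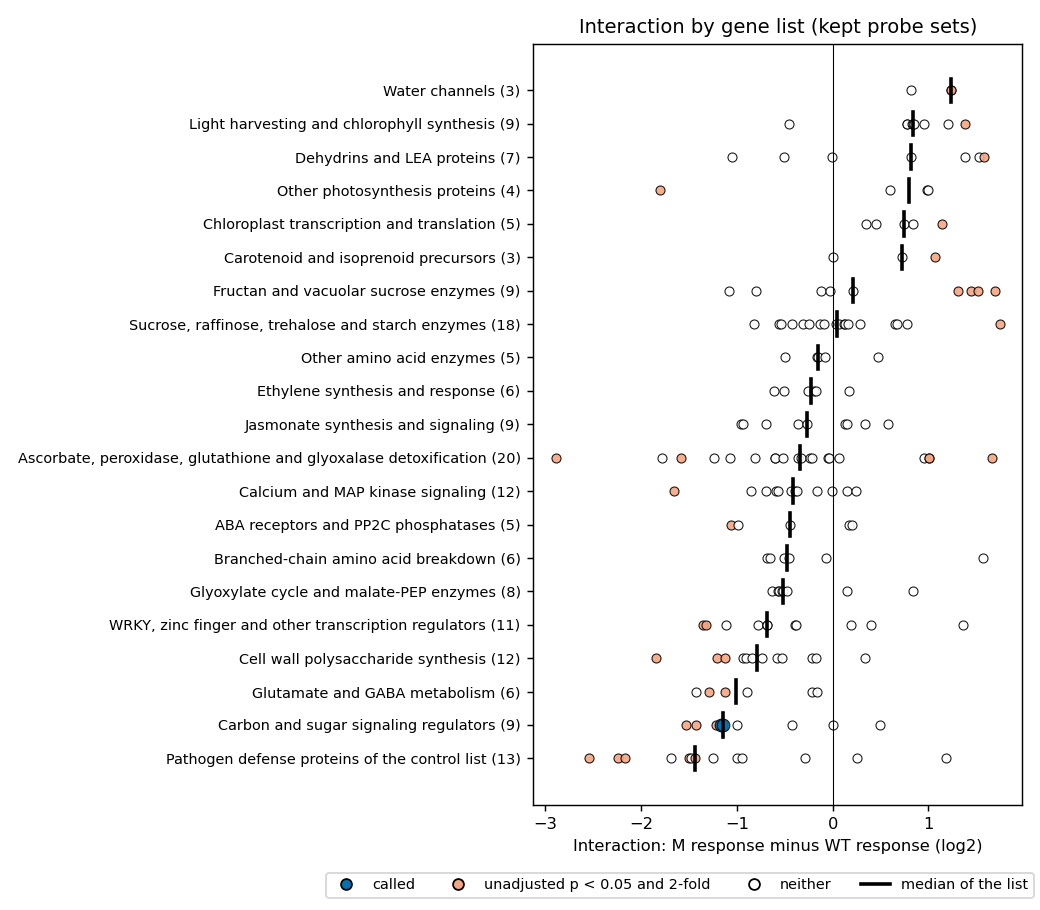
Interaction (M response minus WT response, log2) of each kept probe set in the study's gene lists with at least 3 kept probe sets, ordered by the median of the list (thick bars), with the number of kept probe sets in parentheses. Filled dark points were called, light filled points had an unadjusted p under 0.05 with 2-fold and open points neither. The medians run from -1.44 (defense proteins) to 1.24 (water channels), and the 2 called points are RAP2.12 and BZIP63 in the carbon and sugar signaling list. Probe sets outside these lists, Ta_22572_1_S1_at among them, are not plotted.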

How the data were processed

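Gene expression was measured in flag leaves with 12 Affymetrix Wheat Genome Arrays. The intensity values deposited by the authors are linear MAS5 signals (version not given in the sources used here), each array scaled to a trimmed mean of 500.3 after 2% was cut from either end. The study's own tests used RMA values and detection calls, not used here, so its filter was replaced: probe sets stayed in where all 3 replicates of at least 1 group lay above percentile 60 of their arrays (intensities of 92.3 to 117). The 111 control probe sets were left out, and 24590 of 61179 others were kept.

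Log2 intensities were fitted with 4 group means in limma 3.58.1 (R 4.3.3, eBayes with an intensity trend), which gave the interaction and its 4 component contrasts. P-values were two-sided and adjusted by Benjamini-Hochberg over all kept probe sets, with thresholds of 0.05 and 2-fold, and the procedure was tested on simulated data. The number of arrays limits the precision (8 residual and 4.79 prior degrees of freedom). Each replicate is a pool of plants, and p-values measure the spread between these pools. Plots used Python 3.11.15 and matplotlib 3.10.9.

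Named probe sets were those with an entry in the study's tables that were called, the 15 largest interactions in each direction among those tables at an unadjusted p under 0.05 and 2-fold, the 4 largest called ones without a name in each direction, other probe sets of the same genes, and actin. Gene names are those of the study's tables, in which 208 probe sets are named and 205 of these were kept, and dots in probe set names are written as _. The comparison, members and lists were chosen with earlier results of these data known. Alternatives were the normalization, the filter, an offset of 32, the trend, array weights, a replicate block, probe sets with shared probes, the fold threshold, the methods' t-test, fits of 6 arrays and leaving out each array.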

Additional observations from a re-analysis of the deposited data

Results flagged for a closer look

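A stress response that differed between M and WT by a test of the difference itself is what marks a result here, and 39 probe sets met this. Among the named ones the response was lower in M in RAP2.12 (Ta_10130_1_S1_at, -1.16), BZIP63 (TaAffx_18447_1_S1_at, -1.15) and Ta_22572_1_S1_at (-1.64). It was also lower in M in the unnamed Ta_22773_2_S1_x_at (-4.14), Ta_28917_1_S1_x_at (-3.08), Ta_28917_1_S1_at (-2.98) and TaAffx_4545_1_S1_at (-2.26). It was higher in M in Ta_3979_1_S1_at (1.52), TaAffx_111524_1_S1_at (1.39), TaAffx_59148_1_S1_at (1.17) and Ta_12331_1_A1_s_at (1.17). All are log2 differences, M response minus WT response, and none of the 39 was called in as many as 6 of the 12 fits that left out 1 array.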

How the results depend on the processing

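The sign of the 39 interactions was the same in all 886 values that the alternatives gave for them. This follows largely from their selection as large against their SE on the same arrays. The number of called probe sets was not stable. Against 39, it was 19 with no filter, 68 without the fold threshold, 364 with array weights (39 shared), and 0 without the intensity trend (smallest adjusted p = 0.0816, 659 at an unadjusted p and 2-fold) or with the methods' t-test (0.0522, 392). With the replicate number as a block it was 0 (smallest adjusted p = 0.0521, 659 unadjusted). The paper describes a split plot design with 3 replicates, water treatment as main plot and genotype as subplot. The labels do not tie the replicate numbers to plots or days. Deviations from the group means had correlations of -0.186 to 0.0889 in 18 same-numbered pairs and -0.145 to 0.161 in 36 other pairs. With 3 arrays a group these cannot settle whether the arrays were paired. Leaving out 1 array gave 0 to 148. Leaving out M stress replicate 3 and WT stress replicate 2 together, chosen after seeing the data as the stress arrays with the highest spiked transcripts, gave 364. The share with a higher response in M, 23.1% here, ran from 15.8% to 38.2% over the 13 settings with calls.

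For the stress response of M, 7013 passed without the fold threshold and 77 by the methods' t-test (1882 to 2335 without 1 array), and for that of WT 5591 and 213 (1554 to 1920). For M against WT under stress the counts were 479 with array weights, 710 without the fold threshold, 0 by the methods' t-test, 5 from the 6 stress arrays alone, 478 without the pair of arrays, and 75 (without WT stress replicate 3) to 290 (without WT stress replicate 2) without 1 array, with 283 without M stress replicate 3. Under control they were 2 with no filter, 2 with the offset, 71 with array weights, 1 without probe sets of shared probes, 53 from the 6 control arrays alone, and 0 to 12 without 1 array (12 without M stress replicate 3). The cause was not tested.

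Of the named probe sets 3 changed sign, none of them called. LHB1B2 in Ta_23025_1_A1_at had 0.18 without the pair of arrays. RAP2.8 in Ta_27316_1_S1_at had -0.012 with quantile normalization, -0.18 with array weights, -0.16 without the pair and -0.11 to 0.13 without 1 array. CIPK23 in Ta_5041_2_S1_a_at had -0.54 to 0.092 without 1 array. Most large interactions fell short of the adjusted threshold. Of the kept probe sets, 373 had an interaction above 1.5 log2 units in size, and 17 of these were called. Above 2 log2 units there were 129, with 7 called. Why the others fell short was not tested.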
